A study of Mus musculus with 8 samples.

Results

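The *Col6a1*, *Col6a2*, *Col6a3*, *Col6a4*, *Col6a5* and *Col6a6* genes encode the chains of collagen VI, and all 6 were found by symbol among the 24091 genes counted in isolated mouse islets. The family was chosen by gene name, but with the difference between genotypes in *Col6a1* and *Col6a2* already known, so the differences between genotypes in its members are given here as a description, with no p-value for any chain. Islet RNA was sequenced from 4 libraries of wild-type controls and 4 of mutants labelled Ngn3-Cre, itgb1-/-, all on the C57BL/6 background and from mice of 6 weeks of age. In the mutants (*Itgb1*ΔEndo/ΔEndo), Ngn3-Cre recombines floxed *Itgb1*, which encodes integrin β1, in endocrine progenitors, so that endothelial, mesenchymal and other cells outside the endocrine lineage keep the gene. Islets recovered overnight in culture before RNA was taken, and each preparation held a small number of islets. The labels do not tie libraries to mice. The study's list of replicates counts its RNA-seq replicates as animals, with numbers that differ between its panels, so the spread between libraries may be technical in part.

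Collagen VI is unusual among collagens in that it assembles inside the cell. An α1 chain, an α2 chain and a chain of the α3 kind, which is α3 itself or the related α4, α5 or α6, wind into a heterotrimer. The trimers pair and stack inside the cell, and once secreted they form beaded microfilaments. These filaments link basement membranes to the surrounding interstitial matrix, and in the pancreas collagen VI is a main collagen of the border between islets and exocrine tissue. Cells bind it through integrins that contain β1, through the proteoglycan NG2 and through the anthrax toxin receptors. In humans the *COL6A4* gene is broken and gives no chain, whereas the mouse gene is intact.

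*Itgb1* itself was at 315 to 432 CPM (counts scaled to the size of each library, with TMM factors) in the controls and at 193 to 266 in the mutants, without overlap. The libraries held 35.1 to 67.6 M counts, and 3 of them, control 2, control 3 and mutant 3, held over 50 M. Endocrine markers (*Ins1*, *Ins2*, *Gcg*, *Sst*, *Ppy*, *Chga*, *Pdx1*, *Nkx6-1*) summed to 39842 CPM or more in every library, which fits the islet label. Control 2 and control 3 stood apart, with 3034 and 9646 CPM summed over 8 acinar cell markers, against 15.7 to 634 in the other 6 libraries. Control 3 and mutant 3 were the 2 libraries in which *Xist* was above the Y-linked *Ddx3y*. The chains are therefore also given for the 5 libraries under 50 M counts (2 controls, 3 mutants) and for mutant 3 against controls 2 and 3, where 1 mutant library allows no error.

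On the GRCm38 assembly *Col6a2* (chr10:76595756-76623404) and *Col6a1* (chr10:76708792-76726044) lie on the minus strand of chromosome 10 with 85.4 kb between them. *Col6a3* lies alone on chromosome 1 (chr1:90766860-90843971), also on the minus strand. *Col6a6* (chr9:105689417-105828085), *Col6a5* (chr9:105856070-105960643) and *Col6a4* (chr9:105990318-106096691) form a cluster on the minus strand of chromosome 9. The promoters of the α1 and α2 genes are shown because these neighbours had near-equal differences, and those of *Col6a3* and *Col6a6* because the means of these chains of the α3 kind differed in opposite directions. Each window covers 250 bases before and 50 after the start in RefSeq (GRCm38.p6), read on the minus strand, and all 6 chains had a window. Capitals mark matches, on either strand, to the letters searched, which were the TATA box (TATAAA), the CCAAT box (CCAAT), the GC box (GGGCGG), the AP-1 site (TGANTCA) and the hypoxia response core (ACGTG).
Col6a1 promoter, chr10:76725995-76726294: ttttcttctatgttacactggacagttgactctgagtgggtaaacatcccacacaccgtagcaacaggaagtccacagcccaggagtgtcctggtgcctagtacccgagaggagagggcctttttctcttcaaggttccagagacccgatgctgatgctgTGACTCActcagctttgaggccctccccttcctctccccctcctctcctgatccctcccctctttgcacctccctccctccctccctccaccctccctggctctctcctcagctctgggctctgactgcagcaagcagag
Col6a2 promoter, chr10:76623355-76623654: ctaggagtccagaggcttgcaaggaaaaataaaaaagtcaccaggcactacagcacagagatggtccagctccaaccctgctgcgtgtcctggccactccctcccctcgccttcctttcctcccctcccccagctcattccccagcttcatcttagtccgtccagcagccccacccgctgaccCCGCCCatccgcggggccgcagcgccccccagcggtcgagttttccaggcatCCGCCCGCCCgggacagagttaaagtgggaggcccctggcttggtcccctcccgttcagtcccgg
Col6a3 promoter, chr1:90843922-90844221: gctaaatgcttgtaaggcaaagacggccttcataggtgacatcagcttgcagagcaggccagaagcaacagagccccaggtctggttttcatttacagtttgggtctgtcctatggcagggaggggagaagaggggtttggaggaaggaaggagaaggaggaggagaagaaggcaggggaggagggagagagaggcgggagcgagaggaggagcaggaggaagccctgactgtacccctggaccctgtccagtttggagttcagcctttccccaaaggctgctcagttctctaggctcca
Col6a6 promoter, chr9:105828036-105828335: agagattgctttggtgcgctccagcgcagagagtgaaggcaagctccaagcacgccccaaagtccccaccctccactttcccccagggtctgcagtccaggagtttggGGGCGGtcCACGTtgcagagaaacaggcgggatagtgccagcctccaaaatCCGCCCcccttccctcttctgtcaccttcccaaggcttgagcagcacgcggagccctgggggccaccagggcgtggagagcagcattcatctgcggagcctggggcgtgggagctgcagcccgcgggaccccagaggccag

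The *Col6a1* window held 1 AP-1 match and no GC box, and the *Col6a2* window held 3 GC box matches, of which a pair overlap, and no AP-1 match. A second RefSeq start of *Col6a2* (window not printed) had 1 GC box. *Col6a3* had a match to none of the 5 motifs. *Col6a6* had 2 GC boxes and 1 hypoxia response core. Among all 32851 promoter windows of this length 35.7% held the GC box, 7.81% the AP-1 site, 19.6% the hypoxia response core, 37.4% the CCAAT box and 13.6% the TATA box. The GC content was 57.3% for *Col6a1*, 64.3% for *Col6a2*, 56.3% for *Col6a3* and 65% for *Col6a6*, against a median of 52.7% over all windows. A match is a run of letters and was not examined as a binding site.

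*Col6a1* encodes the α1 chain, without which no collagen VI trimer forms. Controls 1 to 4 had 22.8, 16.8, 23.7 and 20 CPM, and mutants 1 to 4 had 39.9, 51.3, 57.5 and 57.7 CPM. The lowest mutant library was thus well above the highest control, and the group means were 20.8 ± 3.13 and 51.6 ± 8.32 CPM (SD, n = 4 each). The log2 fold change was 1.31 (SE 0.16), a 2.48-fold difference. It was 1.21 (SE 0.17) in the 5 libraries under 50 M counts and 1.52 in mutant 3 against controls 2 and 3, so that both sets of libraries gave the same direction. In bulk islet RNA, more cells of a type and more RNA per cell cannot be told apart, here and for every gene below.

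*Col6a2* encodes the α2 chain, the obligate partner of α1. It was at 20, 12.7, 17.7 and 16.9 CPM across controls 1 to 4, and at 31.6, 41.2, 46.5 and 47 CPM across mutants 1 to 4. Again every mutant library exceeded every control, with means of 16.8 ± 3.04 and 41.6 ± 7.14 CPM (SD, n = 4 each) and a log2 fold change of 1.31 (SE 0.18). The difference was 1.11 (SE 0.19) in the 5 libraries and 1.63 in the other 3. The mean ratio of *Col6a2* to *Col6a1* counts was nearly equal between genotypes. It was 0.806 ± 0.0644 in the controls and 0.805 ± 0.0097 in the mutants (SD, n = 4 each). The controls were split, however. Controls 1 and 4 were at 0.875 and 0.846, and controls 2 and 3 at 0.756 and 0.746. The mutants lay between these pairs, at 0.792 to 0.815. Over all 8 libraries the log2 ratio had an SD of 0.076. The median tested gene had an SD of 0.93 against the mean of *Col6a1*, *Col6a2* and *Col6a3*. That mean itself differs between genotypes, so the value is no yardstick for the ratio of *Col6a2* to *Col6a1*. Both genes lie on 1 chromosome and share library and depth, and this is a description of 8 libraries.

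*Col6a3* encodes the long α3 chain, whose C-terminal fragment is released as endotrophin. It had 37.5, 9.54, 11.9 and 30.3 CPM across controls 1 to 4, and 51.9, 52, 127 and 55.1 CPM across mutants 1 to 4. The groups did not overlap, but the controls were split into a low pair (controls 2 and 3) and a higher pair (controls 1 and 4), and mutant 3 was far above the other mutants. Means were 22.3 ± 13.7 and 71.4 ± 36.9 CPM (SD, n = 4 each), with a log2 fold change of 1.68 (SE 0.50). That value joins a difference of 0.64 (SE 0.10) in the 5 libraries under 50 M counts and one of 3.57 in mutant 3 against controls 2 and 3. The direction was the same in both sets, while the size was far apart, unlike that of *Col6a1*. With a term for the library division the log2 fold change was 1.72 (SE 0.54).

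*Col6a6* encodes the α6 chain, which can take the place of α3, and was the only chain with a lower mean in the mutants. Its level was 30, 62.9, 86.6 and 52.8 CPM across controls 1 to 4, and 40.6, 38.6, 20.3 and 19.4 CPM across mutants 1 to 4. Control 1 lay below mutants 1 and 2, so the groups overlapped. Means were 58.1 ± 23.5 and 29.8 ± 11.4 CPM (SD, n = 4 each), and the log2 fold change was -0.97 (SE 0.36). In the 5 libraries under 50 M counts it was -0.34 (SE 0.38), less than its own standard error, and in mutant 3 against controls 2 and 3 it was -1.86. The 2 highest libraries, controls 2 and 3, are the ones with the high acinar marker sums, and their endocrine marker sums were 159467 and 269532 CPM against 39842 to 64892 in the others. The part of either cell type in the level of *Col6a6* was not tested.

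*Col6a5* and *Col6a4*, the remaining chains of the α3 kind, were scarce. *Col6a5* had 1.12, 1.58, 2.19 and 1.19 CPM across controls 1 to 4, and 2.94, 2.09, 1.09 and 5.08 CPM across mutants 1 to 4, from 43 to 214 counts per library. Mutants 1 and 4 were above all controls and mutant 3 was below them, and the log2 fold change of 0.88 (SE 0.47) became 1.54 (SE 0.42) in the 5 libraries and -0.74 in the other 3. *Col6a4* had 9 to 40 counts per library, or 0.67, 0.17, 0.19 and 0.41 CPM across controls 1 to 4, and 0.59, 0.63, 0.59 and 0.59 CPM across mutants 1 to 4. Its groups overlapped through control 1, with a log2 fold change of 0.75 (SE 0.47) over all 8 libraries and 0.16 (SE 0.35) in the 5. An annotated antisense transcript overlaps *Col6a4*, and the counting did not use strand, so its few counts cannot be assigned to the chain with certainty. Annotated genes also overlap *Col6a6* (*Gm38314*, on the opposite strand) and *Col6a3* (*Gm36970*, on the same strand), so this limit may hold for them. Whether any exons are shared was not examined.

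**Figure D1:**
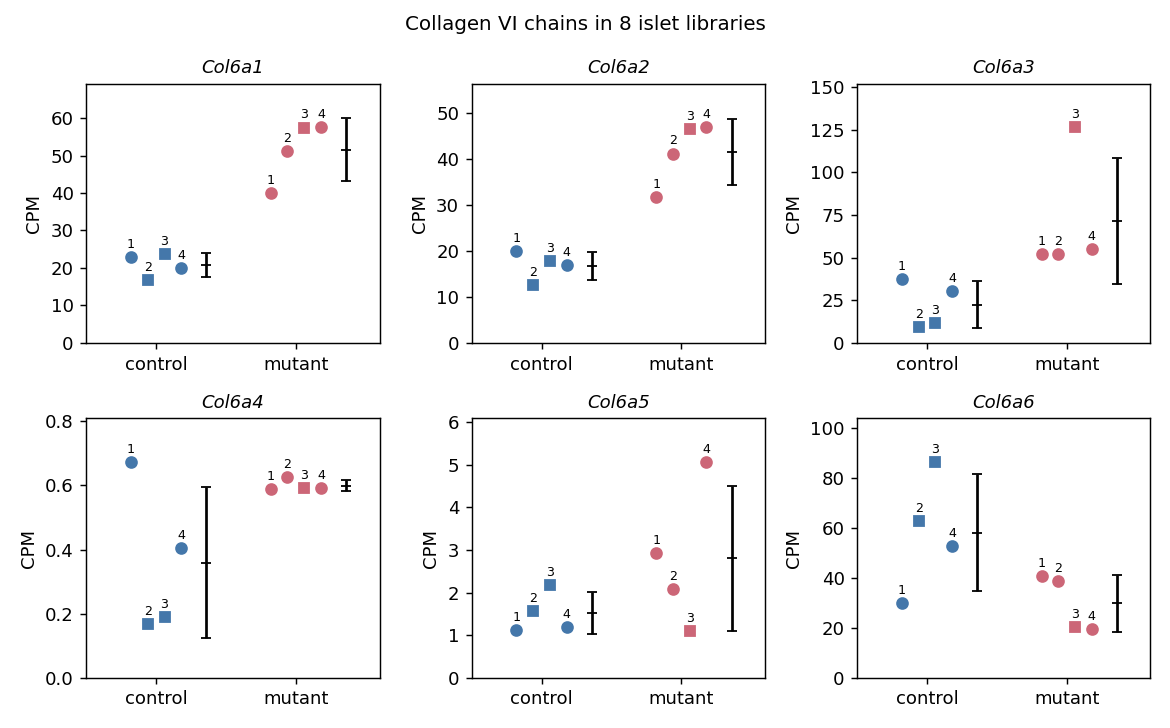
Level of each collagen VI chain in CPM (linear axes from 0) in the 4 control and 4 mutant libraries, numbered by replicate, with squares for the 3 libraries over 50 M counts and the mean ± SD at the right of each group. *Col6a1*, *Col6a2* and *Col6a3* have all mutant libraries above all controls, *Col6a6* is highest in control 3 at 86.6 CPM, and *Col6a4* is at 0.67 CPM or less.

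Over all 15233 genes tested, edgeR's quasi-likelihood test called 0 genes (0%) when a call required an adjusted p under 0.05 with more than a 2-fold difference. It thus called 0 of 6 chains, all of which passed the low count filter. The study itself reported genes in both directions at these thresholds, from a fit that also corrected a batch. That batch is not named, so its fit could not be repeated here. An unadjusted p under 0.05 was reached by 2025 genes, 975 of them higher in the mutants (6.40%) and 1050 lower (6.89%), and the smallest adjusted p was 0.118. DESeq2 called 3 of 6 chains (*Col6a1*, *Col6a2* and *Col6a3*) as higher in the mutants and 0 as lower, where 0.729% of all genes were called higher and 0.499% lower. The groups did not overlap for the same 3 chains, all with the mutants higher, against 4.40% of all genes with the mutants higher and 3.80% with the mutants lower. Because the family was picked with this contrast in view, nothing is read from these counts. The median log2 fold change of the 6 chains was 1.09, beside 0.0015 over all genes. It was 0.87 in the 5 libraries and 1.52 in mutant 3 against controls 2 and 3.

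**Figure D2:**
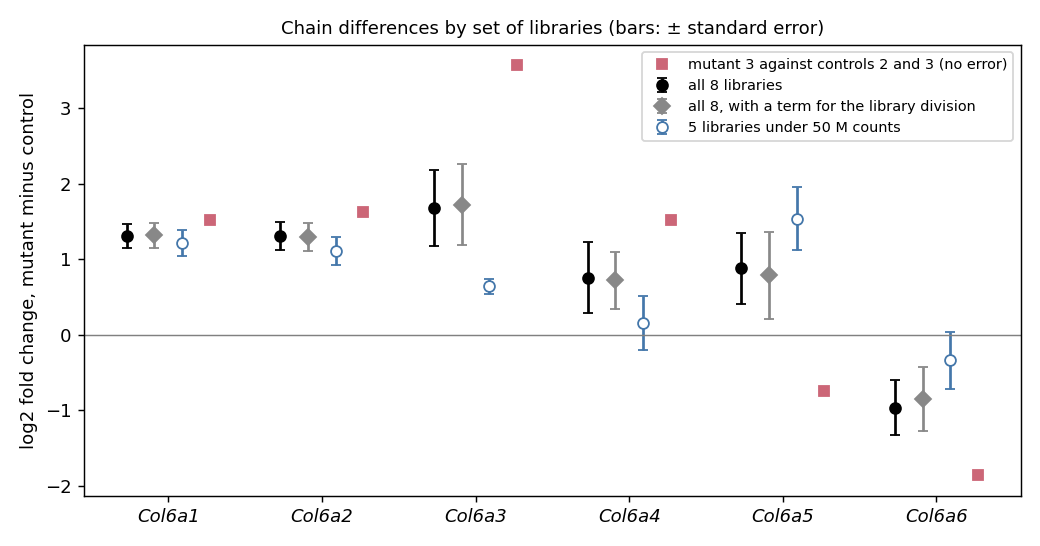
Log2 fold change, mutant minus control, of each chain over all 8 libraries, over all 8 with a term for the library division, over the 5 libraries under 50 M counts and in mutant 3 against controls 2 and 3. Bars are ± standard error. *Col6a1* and *Col6a2* stay between 1.11 and 1.63, whereas *Col6a3* ranges from 0.64 to 3.57 and *Col6a5* changes sign.

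Comparing chains with each other requires a scale per length, and the answer depended on which length was used. With the gene length given beside the counts, *Col6a1* had 5.29 ± 0.79 CPM per kb in controls and 13.1 ± 2.11 in mutants, *Col6a2* 2.15 ± 0.39 and 5.31 ± 0.91, and *Col6a3* 1.98 ± 1.22 and 6.34 ± 3.28 (SD, n = 4 each). In each of the 8 libraries *Col6a1* was above *Col6a2*, by 1.30 ± 0.076 on the log2 scale, and above *Col6a3*, by 1.39 ± 0.74 (mean ± SD). Both differences had p = 0.0078, the smallest that 8 libraries allow in an exact two-sided paired permutation test, and an adjusted p of 0.0117 over 3 pairs. *Col6a2* was above *Col6a3* in 4 of 8 libraries and the pair could not be ordered (mean log2 ratio 0.089, exact permutation p = 0.758). The deposited length of *Col6a2*, 7.82 kb, is far longer than its longest coding transcript in GENCODE M21, 3.95 kb, whereas that of *Col6a1*, 3.94 kb, is close to its own (4.1 kb). Per kb of coding sequence (3.08 kb for *Col6a1* and 3.1 kb for *Col6a2*) the excess of *Col6a1* shrank to 0.33 on the log2 scale, and *Col6a2* was above *Col6a3* by 1.23 in 8 of 8 libraries (exact permutation adjusted p = 0.0078). *Col6a1* was thus the highest of these 3 chains on either length, while the place of *Col6a2* rests on the length chosen.

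The 4 chains of the α3 kind, 1 of which joins each trimer, were summed per kb of deposited length. Their total was 10 ± 2.23 CPM per kb in controls and 10.7 ± 2.53 in the mutant group (SD, n = 4 each), so it differed by less than the spread between libraries. On that scale *Col6a1* was at 5.29 ± 0.79 and 13.1 ± 2.11, and *Col6a2* at 2.15 ± 0.39 and 5.31 ± 0.91. The unscaled sum of *Col6a1* and *Col6a2*, not comparable in level with that total, was 37.7 ± 5.99 and 93.2 ± 15.5 CPM. The make-up of the α3 kind was then taken as shares of its total. *Col6a6* was 53.3, 89.1, 89.8 and 71.2% of the total in controls 1 to 4 and 52.2, 51.3, 19.3 and 32.1% in mutants 1 to 4. No mutant reached the lowest control, although control 1 and mutant 1 were separated by about 1 percentage point. *Col6a3* gave 43.9, 8.92, 8.14 and 27% in controls 1 to 4 and 44, 45.6, 79.3 and 60.2% in mutants 1 to 4. Per kb of deposited length *Col6a6* was 1.21 to 11 times *Col6a3* in the controls and 0.243 to 1.19 times in the mutants. The widest gap was between controls 2 and 3 and mutant 3, the 3 libraries over 50 M counts. Which chain was higher in control 1 rested on the scale. With no length scaling that library had 30 CPM of *Col6a6* and 37.5 of *Col6a3*, against 4.42 and 3.80 CPM per kb of coding length. *Col6a4* and *Col6a5* together stayed a small part of the total in every library.

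**Figure D3:**
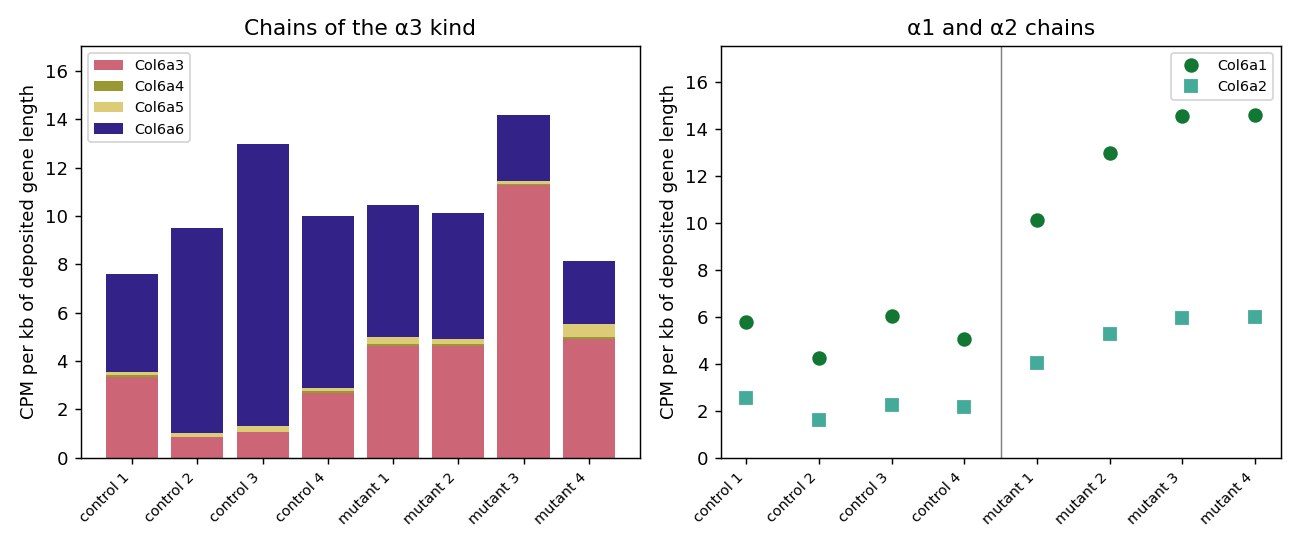
CPM per kb of deposited gene length in each library, as stacked bars for the chains of the α3 kind (left) and as points for *Col6a1* and *Col6a2* (right). The bars reach 7.58 to 14.2 CPM per kb with no separation of the genotypes in height, while the *Col6a3* part is 8.14% in control 3 and 79.3% in mutant 3, and both α1 and α2 points are higher in all mutants.

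The nearest counted genes around the α1 and α2 loci had log2 fold changes nearer to 0. *Pcbp3*, an RNA-binding protein gene 35.8 kb beyond *Col6a1*, was at 58.8 CPM in controls and 57.1 in mutants (log2 fold change -0.043, SE 0.16, edgeR adjusted p = 0.92), and *Slc19a1*, the reduced folate carrier, was at 0.47 (SE 0.23, adjusted p = 0.402). *Spatc1l* was at 0.16 (SE 0.50), and *Ftcd*, *4930483K19Rik* and *Gm10787* had too few counts to be tested. Around *Col6a3*, *Cops8*, a COP9 signalosome subunit, was at -0.097 (SE 0.13) and *Mlph*, a melanosome transport gene, at -0.39 (SE 0.18). *Rab17* was at -0.26 (SE 0.47), and *Iqca* and *Prlh* were too low to be tested. *Ackr3*, an atypical chemokine receptor gene 551 kb away, was the exception, at 8.39 CPM in controls and 24.7 in mutants, a log2 fold change of 1.56 (SE 0.51, adjusted p = 0.353), and it did not pass the test.

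Receptors for collagen VI were at a log2 fold change of 0.81 in the median of 8 genes tested. EdgeR's test called 0 of 8. With an unadjusted p under 0.05, 3 stood higher and 1 lower (6.40% and 6.89% of all genes), and DESeq2 called 2 higher (0.729% of all genes). The 1 lower was *Itgb1*, the gene deleted by design in the mutants. The median was 0.52 in the 5 libraries under 50 M counts. *Cspg4*, which encodes NG2, a proteoglycan of pericytes and glial progenitors, had 11.6, 2.86, 7.43 and 7.11 CPM across controls 1 to 4, and 18.6, 19, 24.9 and 16.8 CPM across mutants 1 to 4. All mutant libraries were above all controls, with a log2 fold change of 1.45 (SE 0.37, adjusted p = 0.353 from edgeR and 0.0126 from DESeq2). The value was 0.95 in the 5 libraries and 2.42 in mutant 3 against controls 2 and 3. *Antxr1*, an anthrax toxin receptor, had 4.28 ± 1.13 and 11.4 ± 4.13 CPM (SD, n = 4 each), also without overlap, at 1.42 (SE 0.31, edgeR adjusted p = 0.306). *Antxr2*, the receptor that takes up collagen VI for breakdown, had 7.21 ± 3.01 and 11.5 ± 4.48 CPM, and its groups overlapped (0.67, SE 0.36, or 0.40 without mutant 1). *Itga11*, a collagen-binding integrin α subunit, was at 0.256 ± 0.145 and 0.857 ± 0.427 CPM, a log2 fold change of 1.73 (SE 0.55). *Itgb1* was at -0.75 (SE 0.15, edgeR adjusted p = 0.256).

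Of 12 matrix proteins that bind or anchor collagen VI, 10 were tested, with a median log2 fold change of 1.01. EdgeR's test called 0 of them, 7 stood higher and 1 lower with an unadjusted p under 0.05 (6.40% and 6.89% of all genes), and DESeq2 called 4 higher (0.729% of all genes). In the 5 libraries the median was 0.61. *Bgn*, which encodes biglycan, a small proteoglycan bound to collagen VI filaments, had 48.7, 44.1, 54.5 and 42.5 CPM across controls 1 to 4, and 97.5, 115, 135 and 141 CPM across mutants 1 to 4. The gap between the groups was wide, with a log2 fold change of 1.37 (SE 0.15, adjusted p = 0.118 from edgeR and 9.07e-12 from DESeq2). With a term for the library division *Bgn* passed edgeR's test (1.40, adjusted p = 0.0353), the only gene of these partner lists that did. *Dcn*, the related proteoglycan decorin, was at 26.7 ± 5.86 and 62 ± 29.9 CPM (SD, n = 4 each), and mutant 3, at 26.3, lay within the control range. *Fn1*, fibronectin, had a log2 fold change of 2.06 (SE 0.51) and *Tnxb*, tenascin-X, of 1.27 (SE 0.37). The edgeR adjusted p was 0.353 for both. In the 5 libraries they were at 1.26 and 0.86, and in mutant 3 against controls 2 and 3 at 3.58 and 1.65.

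Genes that modify, fold or cleave collagen chains had a median log2 fold change of 0.80 over 15 genes. EdgeR's test called 0 of 15, 11 stood higher and 0 lower with an unadjusted p under 0.05 (6.40% and 6.89% of all genes), and DESeq2 called 1 higher (0.729% of all genes), *Mmp14*. *Mmp14*, which encodes a membrane-bound protease, had 35.8 ± 23.6 and 111 ± 19.8 CPM (SD, n = 4 each), or 1.63 on the log2 scale (SE 0.47). *Plod3*, a lysyl hydroxylase needed for the assembly of collagen VI, differed less but with little spread, at 71.2 ± 8.13 and 97.2 ± 3.06 CPM (0.45, SE 0.10, edgeR adjusted p = 0.324). *Serpinh1*, the collagen chaperone Hsp47, was at 0.80 (SE 0.21) and *Colgalt1*, a collagen galactosyltransferase, at 0.55 (SE 0.16).

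The collagen VI chains were set beside the other collagens. Of 10 fibrillar collagen genes tested edgeR called 0 and DESeq2 6, all higher (0.729% of all genes). With an unadjusted p under 0.05, 6 stood higher and 1 lower (6.40% and 6.89% of all genes). The log2 fold change was below 0 for 3 of the 10. The median log2 fold change was 1.41 over all libraries, 0.61 in the 5 and 1.94 in mutant 3 against controls 2 and 3. *Col1a1* had 54.4 ± 27.4 CPM in controls and 189 ± 43.3 in mutants (1.80, SE 0.36), *Col1a2* 45.4 ± 15.6 and 134 ± 34.7 (1.56, SE 0.28), *Col3a1* 57.8 ± 20.2 and 139 ± 39.3 (1.26, SE 0.30) and *Col5a1* 13.1 ± 6.28 and 48.1 ± 25.2 (1.89, SE 0.44) (SD, n = 4 each). Adjusted p-values of these 4 genes were 0.233 to 0.324 from edgeR's test. In the 5 libraries they were at 1.26, 1.32, 1.03 and 0.95 in the same order. In mutant 3 against controls 2 and 3 they were at 2.72, 2.08, 1.80 and 3.47. The 6 basement membrane chains of collagen IV had a median of 0.68, which was 0.43 in the 5 libraries, 0.25 with the division term and -0.18 in mutant 3 against controls 2 and 3. Neither tool called any of the 6, and 2 stood higher with an unadjusted p under 0.05 (6.40% of all genes). Both *Col4a1* and *Col4a2*, which also stand in the list of matrix partners, were higher in the mean, at 0.80 (SE 0.25) and 0.73 (SE 0.29). In the 5 libraries they were at 0.36 and 0.19, and in mutant 3 against controls 2 and 3 at 1.54 and 1.64. *Col4a5* was at 0.64 (SE 0.61), or 0.11 without mutant 1 and 1.24 without control 1. *Col4a3* was at -0.71 (SE 0.45) over all 8 libraries, at -0.36 without control 3 and at 0.39 in the 5. Over all 35 other collagen genes tested the median was 0.73, with 12 whose mutants were all higher and 1 whose mutants were all lower (4.40% and 3.80% of all genes). Whether collagen VI differs from these families was not tested.

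**Figure D4:**
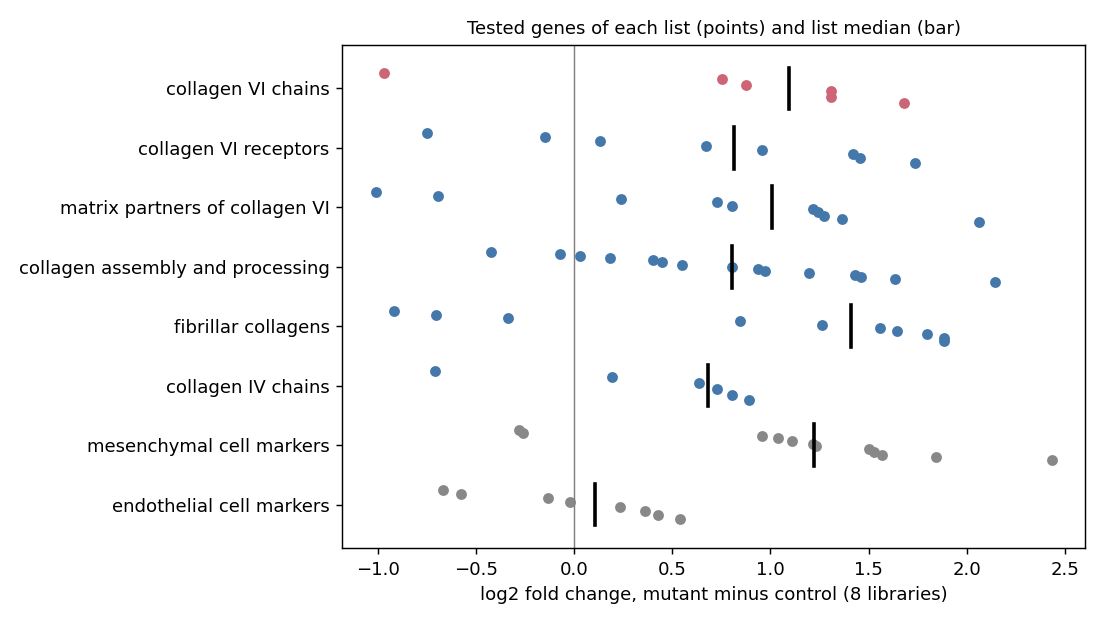
Log2 fold change over all 8 libraries of each tested gene (points) in the collagen VI family, its partner lists, 2 other collagen families and 2 marker lists, with the list median as a bar. The medians are 1.09 for collagen VI chains, 1.41 for fibrillar collagens, 1.22 for mesenchymal and 0.11 for endothelial markers, and *Col6a6* is the chain at the far left.

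Markers of mesenchymal cells, the fibroblasts, stellate cells and pericytes that make most matrix, also had a median above 0. Their 12 genes (*Pdgfra*, *Pdgfrb*, *Thy1*, *Lum*, *Dpt*, *Rgs5*, *Acta2*, *Tagln*, *Myh11*, *Abcc9*, *Kcnj8*, *Des*) summed to 226 to 362 CPM in controls and 272 to 618 in mutants, with overlap and with none at 0 in all libraries. Of the 12, 0 were called by edgeR, 6 stood higher with an unadjusted p under 0.05 (6.40% of all genes) and DESeq2 called 1 (0.729% of all genes). The median log2 fold change was 1.22 over all libraries and 1.19 in the 5, but 0.36 in mutant 3 against controls 2 and 3, where *Col6a1* and *Col6a2* were at 1.52 and 1.63. Endothelial markers summed to 716 to 781 CPM in controls and 648 to 815 in mutants (median 0.11), ductal markers to 305 to 1609 and 1060 to 2944 (median 0.82), Schwann cell markers to 30.7 to 48.9 and 48 to 75.4 (median 0.84), and macrophage markers to 34.5 to 78.6 and 42.1 to 59.7 (median -0.38). In the 5 libraries these medians were 0.24, 0.45, 0.25 and 0.21 in the same order. All 8 endocrine markers had log2 fold changes below 0, with a median of -1.06 that was -0.11 in the 5 libraries. DESeq2 called 1 of them, *Gcg*, lower (0.499% of all genes). All 8 acinar markers were below 0 as well, with a median of -3.85 that was 0.88 in the 5 libraries. The 6 adipocyte markers summed to 0.119 to 0.467 CPM in every library and had too few counts to test. The part of these cells in the collagen VI levels was not tested.

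The genes most like collagen VI were ranked by the SD over 8 libraries of their log2 ratio to the mean of *Col6a1*, *Col6a2* and *Col6a3*. Among the 8 nearest were *Hoxb2* (0.25), *Lhfp* (0.25), *Pcdhb12* (0.27), *Mrc2* (0.28), *Fxyd5* (0.29), *Olfml3* (0.29) and a gene whose symbol had been turned into a date before deposit (0.29). *Hoxb2* is a homeobox factor gene, and *Mrc2* encodes an endocytic collagen receptor. Against *Col6a1* and *Col6a2* alone, a ranking chosen after the values were seen, the nearest gene was *Bgn*, with an SD of 0.13. These genes share libraries and depth with the chains, and the ranking took both genotypes together. A near gene therefore had to share much of the chains' difference between genotypes, and no test was made.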

How the data were processed

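RNA-seq was made from islets of 4 control and 4 mutant mouse libraries. According to the methods, the authors removed ribosomal RNA, trimmed single-end reads with Trimmomatic and FASTP, used STAR for alignment (mm10) and featureCounts with its defaults, which ignore strand, for gene counts. The authors deposited these raw counts with a gene length per row, and a table of their own comparison (CPM, fold changes, p-values), which was not used. GRCm38 and edgeR also stand in the submitters' notes on processing.

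The counts were fitted in R 4.3.3 with edgeR 4.0.16 (low count filter, TMM, quasi-likelihood test, genotype as the only term, since the batch corrected in the study is not named), with Benjamini-Hochberg adjustment over 15233 genes and calls required an adjusted p under 0.05 with more than a 2-fold difference. A standard error is the size of the log2 fold change divided by the square root of F. DESeq2 1.42.0, other scalings and filters, a replicate block, a term for libraries over 50 M counts and subsets of libraries were alternatives. Values for mutant 3 against controls 2 and 3 are differences of mean log2 CPM with a prior count of 2. Chains were compared within libraries with exact paired permutation tests (scipy 1.17.1). The fit was tested on simulated data. No pair of libraries agreed within sampling noise (smallest chi-square per gene 27.9).

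The members and gene lists were chosen with earlier results of these data known. Genes named are all chains, the 4 members of each partner list with the smallest p, 5 fixed genes (*Itgb1*, *Bgn*, *Dcn*, *Antxr2*, *Cspg4*), the 8 most alike genes (1 of them is not reported here) and the 3 nearest genes on each side of the α1-α2 pair and of *Col6a3*. Promoter sequences are from RefSeq (GRCm38.p6), transcript lengths and overlaps from GENCODE M21. Imaging and other experiments of the study were not analysed here.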

Additional observations from a re-analysis of the deposited data

Results flagged for a closer look

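Within groups of 4 libraries, 7 of 82 sets of values had 1 library far from the other 3, where chance gives about 1 in 20. *Col6a3* in mutant 3 was at 127 CPM, against 51.9 to 55.1 CPM in the other mutants. The fibrillar *Col5a1* was also highest there, at 85.5 CPM against 31 to 38.8, and the summed Schwann cell markers were at 75.4 CPM against 48 to 51.9, while *Tnxb* was lowest there, at 29.2 CPM against 44.1 to 44.8. *Col6a4* in mutant 2 was at 0.626 CPM against 0.588 to 0.593, from 25 to 40 counts per mutant library. *Col4a5* in control 1 was at 10.8 CPM against 2.95 to 3.97. The summed acinar markers in mutant 4 were at 634 CPM against 72 to 97.7. The cause of these differences was not tested.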

How the results depend on the processing

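The number of genes called over all genes was 0 in edgeR's fit and 187 with DESeq2, 4 with a term for the library division and 10 in the 5 libraries under 50 M counts. The corresponding numbers of partner genes were 0, 13, 1 and 0. No chain was called by edgeR in any setting run. The log2 fold changes of *Col6a1* and *Col6a2* moved least when a library was left out (1.22 to 1.41 and 1.19 to 1.42). The ranges were -1.18 to -0.71 for *Col6a6*, 0.42 to 1.15 for *Col6a5*, 0.51 to 1.24 for *Col6a4* and 1.25 to 2.05 for *Col6a3*. *Col6a3* was at 2.05 without control 1 and 1.25 without mutant 3, *Col6a4* at 1.24 without control 1, and *Col6a5* at 0.42 without mutant 4. In the 5 libraries *Col6a3* was at 0.64, *Col6a4* at 0.16 and *Col6a6* at -0.34, and in mutant 3 against controls 2 and 3 *Col6a2* was at 1.63, *Col6a3* at 3.57, *Col6a4* at 1.52, *Col6a5* at -0.74 and *Col6a6* at -1.86. The cause was not tested, and the 5 libraries hold fewer samples. With total counts only, the median of all genes moved from 0.0015 to 0.15, and *Col6a1* was at 1.46 and *Col6a6* at -0.75.

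Same-numbered libraries deviated together in 3 of 4 pairs (r = 0.423, 0.457 and 0.254, and -0.013 for number 2), so a pairing is possible. Numbers 1 and 4 each joined libraries under 50 M counts. Number 3 joined libraries over 50 M counts, both with *Xist* above *Ddx3y*, and number 2 joined 62.2 M with 39.6 M. The part of this division in the correlations was not tested. The labels do not say that equal numbers are pairs, so the main fit left pairing out and a replicate block was an alternative. With the replicate block *Col6a1* was at 1.31, *Col6a3* at 1.78 and *Col6a6* at -0.96, and 0 genes were called. Per kb of coding sequence *Col6a2* stood above *Col6a3* by 1.23, and with no length scaling *Col6a1* over *Col6a3* was -0.12 and *Col6a2* over *Col6a3* -0.44. In the 5 libraries, where the exact test cannot pass (smallest p 0.0625), *Col6a1* was above *Col6a2* by 1.27 and above *Col6a3* by 1.19, and *Col6a2* over *Col6a3* was -0.081. Leaving out a library gave -0.055 to 0.23 for the last pair. *Col4a3* changed sign in the 5 libraries (0.39). Of the named partner genes 11 passed with DESeq2, and of these *Bgn* also passed with the division term.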

Other observations

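Likeness was also ranked for single chains after their values were seen. The genes nearest to *Col6a3*, by the SD over 8 libraries of the log2 ratio, were the fibrillar collagens *Col5a1* (0.19) and *Col5a2* (0.20), the collagen chaperone *Fkbp10* (0.23) and *Col8a1* (0.24), with log2 fold changes of 1.89, 1.65, 1.46 and 1.61. Among those nearest to *Col6a6* were *Dgki*, a diacylglycerol kinase gene (0.24), *Lrrc6* (0.29) and *Trpm3*, a cation channel gene of β-cells (0.34), all with lower means in the mutants (-1.11, -0.84 and -0.81). None of these 7 genes passed edgeR's test (adjusted p 0.324 to 0.398). The ranking took both genotypes together, so a near gene had to share much of the chain's difference between genotypes. The log2 fold changes of these genes are therefore no separate finding. The log2 ratio of *Col6a3* to *Col6a6* had the largest SD of any pair of chains, 1.91, against 0.076 for *Col6a1* and *Col6a2*.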
